A study of Rattus norvegicus with 10 samples.

Results

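The genes described here were 9 genes of mitochondrial quality control and dynamics, taken by symbol from a table of 18025 genes: Pink1, Bnip3, Bnip3l, Fundc1, Mfn1, Mfn2, Opa1, Dnm1l and Fis1. Each symbol occurred once, and all 9 genes were expressed above the minimum for testing, a mean of 0.1 FPKM, as were 14542 genes of the table. FPKM, fragments per kilobase of gene scaled to the reads mapped, is a level relative to gene length and library size. RNA-seq was performed on heart tissue of wild-type Sprague-Dawley fetuses, taken on embryonic day 19.5. Dams were 3 months old and were mated with males of the same age. By the study's methods, dams were assigned to groups and injected after a vaginal plug was seen. Its introduction instead speaks of hyperglycemia induced before pregnancy. In the hyperglycemia (HG) group, dams received intraperitoneal streptozotocin, a toxin of pancreatic beta cells, in citric acid buffer daily on 3 days. Their non-fasting blood glucose exceeded 16 mM at 7 days after injection. Control (CON) dams received the buffer alone on the same schedule; overnight fasting is stated for the HG dams, and injection was shared by both groups. Each group held 5 libraries. The labels do not say whether these came from separate dams or litters, so the p-values measure the spread between these libraries only.

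Mitochondria are cleared selectively by mitophagy. The kinase PINK1 accumulates on damaged mitochondria and starts their marking with ubiquitin, whereas BNIP3, NIX (encoded by Bnip3l) and FUNDC1 sit in the outer membrane and bind LC3-family proteins of the autophagosome directly. Mitochondria also fuse and divide: mitofusin 1 and mitofusin 2 join outer membranes, OPA1 joins inner membranes and shapes cristae, and the dynamin DRP1 (encoded by Dnm1l) divides the organelle with outer membrane proteins such as FIS1. In heart muscle, which is packed with mitochondria, mitofusins are also substrates of PINK1 signalling, which links both systems.

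The labelled tissue carried its defining transcripts. All 9 cardiomyocyte markers examined were expressed in both groups. Their summed level was 19225 to 20423 FPKM in CON and 15415 to 17930 in HG, with no overlap, and 7 of the 9 passed the test as lower and 0 as higher. Smooth muscle markers moved the other way, with 3 of 4 higher and sums of 651 to 778.4 and 888.4 to 1121 FPKM. Endothelial (1 of 5 higher, 0 lower), fibroblast (2 higher and 2 lower of 6), macrophage (2 of 5 higher) and erythroid markers (2 higher and 9 lower of 12) were also present, whereas one legend of the study speaks of isolated cardiomyocytes. Hemoglobin genes held 2.30 to 4.25% of the summed FPKM in CON and 1.89 to 2.58% in HG. Liver transcripts were low, but CON replicate 3 stood apart with a sum of 73.0 FPKM against 3.12 to 7.22 in the other CON and 0.852 to 2.40 in the HG libraries. In whole tissue, fewer cells of a type and less RNA per cell cannot be told apart. The part of these cell type shifts in the differences described below was not tested, beyond the ratios to reference genes given there.

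Of the 9 genes, 5 passed the test between groups (limma on log2 FPKM, Benjamini-Hochberg adjusted p under 0.05 over all 14542 genes). Pink1, Mfn1, Mfn2 and Opa1 were lower in HG, and Bnip3 was higher, and the counts were the same, 4 and 1, without CON replicate 3. Among all genes tested 40.1% passed, 28.4% as higher and 11.8% as lower. Thus 5 of 9 lay near the overall rate, while the direction was mostly the less frequent one with FPKM as deposited. That balance depends on scaling. Of all genes, 2551 were lower and 2271 higher under median-of-ratios factors, and 2317 and 2615 after quantile normalization. The median log2 fold change, HG minus CON, was -0.10 over the 9 genes and 0.09 over all genes tested. For 3 genes, Pink1, Mfn1 and Mfn2, the groups did not overlap, all on the lower side, against 27.4% of genes tested without overlap in either direction and 8.12% on the lower side. With the study's added requirement of a more than 2-fold change, 1.94% of genes passed and 0 of the 9 did, by limma or by voom on recovered reads and also at an unadjusted p under 0.05, with Pink1 just short of the limit. Pink1 did pass it, as the 1 gene of the 9, under median-of-ratios factors, quantile normalization and with hemoglobin genes left out, and also without CON replicate 2 or HG replicate 1, 2 or 3.

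**Figure D1:**
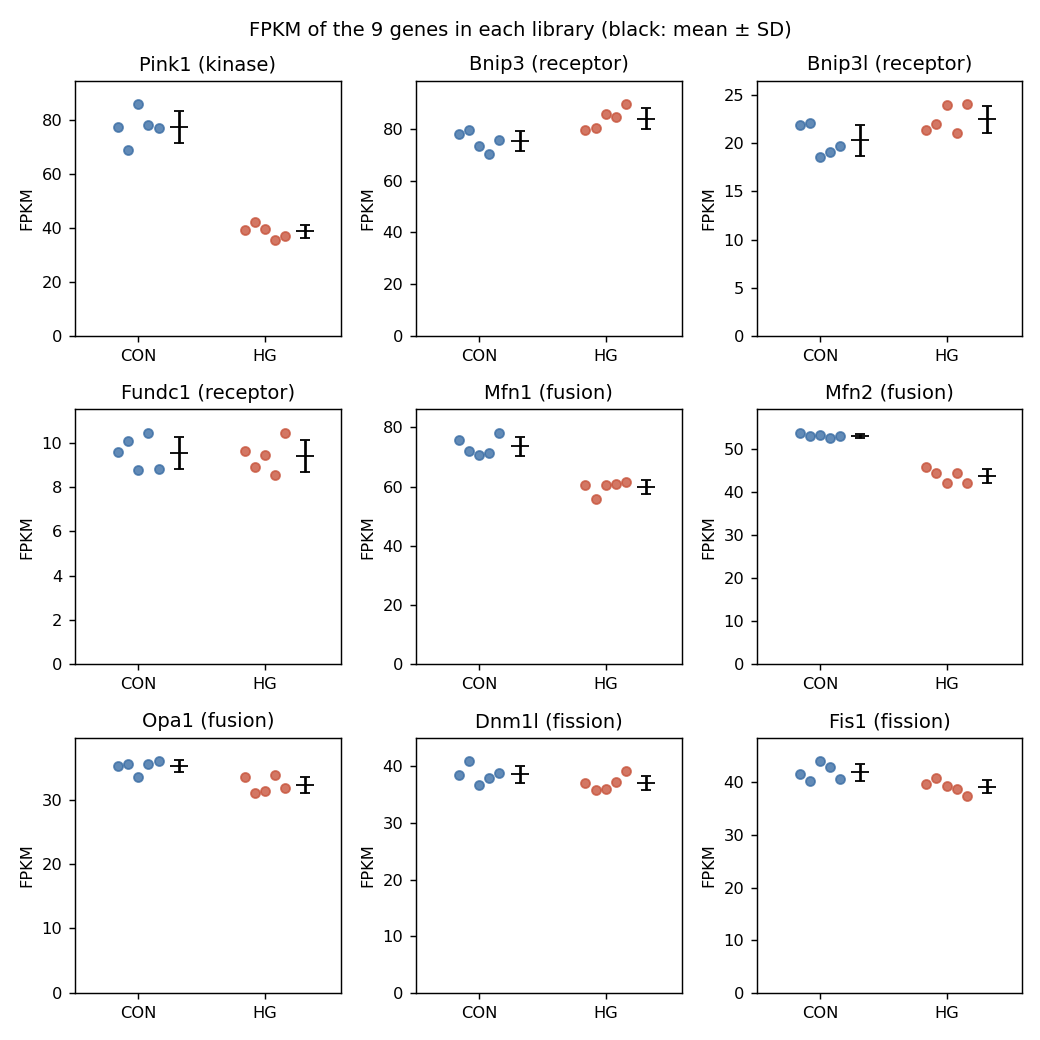
FPKM (vertical axis, from 0) of each of the 9 genes in the 5 CON and 5 HG libraries. Each point is a library, and the black bars give the mean ± SD. Pink1, Mfn1 and Mfn2 separated the groups completely, with Pink1 at 68.7 to 85.7 FPKM in CON and 35.6 to 42.0 in HG.

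Pink1 (NCBI gene 298575), which encodes the kinase that senses loss of mitochondrial import, showed by far the widest difference of the set. Its level was 77.1, 68.7, 85.7, 77.8 and 76.9 FPKM in CON replicates 1 to 5 and 39.1, 42.0, 39.4, 35.6 and 37.0 FPKM in HG replicates 1 to 5. Every HG library lay far below every CON library. The mean fell from 77.3 ± 6.01 to 38.6 ± 2.47 FPKM (SD, n = 5 each), a log2 fold change of -0.996 (SE 0.0587, 95% interval -1.12 to -0.87, adjusted p = 5.30e-07). Among all genes tested, 174 had a lower log2 fold change than Pink1 and 17 a smaller p. The highest CON value belonged to replicate 3, the library with liver transcripts, and without it the log2 fold change was -0.96 (adjusted p = 1.86e-06). Pink1 is among the genes that the study selected on these same libraries, so its decrease is not independent evidence for that selection.

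The 250 bases before the start of Pink1, of Bnip3, the gene that rose, and of Mfn1, which fell with no overlap, are shown because these genes moved in different ways. The sequences are from RefSeq on the GRCr8 assembly, read 5′ to 3′ on the gene's strand, with each CACGTG, the core E-box bound by several basic helix-loop-helix factors, in capitals. Pink1 lies on the minus strand, at chr5:155825951-155826200, Bnip3 on the minus strand, at chr1:203154963-203155212, and Mfn1 on the plus strand, at chr2:117241508-117241757.
Pink1: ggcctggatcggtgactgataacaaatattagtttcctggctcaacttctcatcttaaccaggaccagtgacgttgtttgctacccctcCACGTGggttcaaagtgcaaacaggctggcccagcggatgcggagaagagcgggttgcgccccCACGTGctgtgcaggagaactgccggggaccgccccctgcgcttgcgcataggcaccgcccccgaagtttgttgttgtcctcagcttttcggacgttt
Bnip3: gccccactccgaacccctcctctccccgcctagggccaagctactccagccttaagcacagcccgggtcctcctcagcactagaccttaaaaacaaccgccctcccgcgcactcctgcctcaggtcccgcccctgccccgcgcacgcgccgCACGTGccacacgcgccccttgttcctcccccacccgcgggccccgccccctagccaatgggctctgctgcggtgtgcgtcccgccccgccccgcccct
Mfn1: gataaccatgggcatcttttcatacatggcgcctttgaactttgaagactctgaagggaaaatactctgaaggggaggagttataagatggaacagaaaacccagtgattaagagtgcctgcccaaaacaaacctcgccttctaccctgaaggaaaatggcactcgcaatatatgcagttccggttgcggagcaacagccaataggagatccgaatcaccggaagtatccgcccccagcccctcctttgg
The Pink1 window held CACGTG at 2 positions, with first bases 161 and 98 bases upstream of the start, and the Bnip3 window at 1 position, 99 bases upstream. Mfn1 had none. Among 33469 rat promoter windows of this length, 5.59% held the motif and 0.430% held it at least 2 times. Windows were matched for 6 of the 9 genes, 7 windows in all with 2 for Fis1, and 2 of the 7 held it. Their GC content ran from 46% (Dnm1l) to 72.4% (Bnip3), against a median of 51.2% over all windows. The shares over all windows were not matched for GC content. The other 5 motifs were searched on both strands: the hypoxia core ACGTG, which lies inside CACGTG, was in 3 of the 7 windows (Pink1, Bnip3, Opa1) and 16.6% of all, the receptor half-site AAGGTCA in 0 and 3.99%, the forkhead motif TGTTTAC in 1 (Dnm1l) and 3.21%, GGGCGG in 6 and 30.5%, and CCAAT in 4 and 34.02%. These are matches of letters, in genes that moved in opposite directions, and say nothing of binding.

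The outer membrane receptors of mitophagy did not follow Pink1. Bnip3 (NCBI gene 84480), a hypoxia-inducible receptor, was at 78.1, 79.7, 73.4, 70.1 and 75.6 FPKM in CON and at 79.7, 80.3, 85.8, 84.4 and 89.5 FPKM in HG. The groups met only at the edge, where the highest CON and the lowest HG library were both near 79.7 FPKM. The mean rose from 75.4 ± 3.81 to 83.9 ± 4.07 FPKM, or by 11.4%, a log2 fold change of 0.16 (SE 0.0446, 95% interval 0.06 to 0.25, adjusted p = 0.0152). The median of all genes tested was itself 0.09. Under median-of-ratios scaling, which moves that median to 0.01, the log2 fold change of Bnip3 was 0.06 with an adjusted p of 0.270. After quantile normalization, where the median of all genes was 0.02, Bnip3 was at 0.14 and passed (adjusted p = 0.0369). It passed under 20 of 21 alternatives, with adjusted p from 0.0109 to 0.270.

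Bnip3l (NCBI gene 140923), whose product NIX clears mitochondria from maturing red cells, was at 21.9, 22.1, 18.6, 19.1 and 19.7 FPKM in CON and 21.4, 21.9, 23.9, 21.0 and 24.0 FPKM in HG. Its groups overlapped, with CON replicates 1 and 2 among the HG values. The log2 fold change was 0.15 (95% interval 0.02 to 0.28, adjusted p = 0.0679), which did not pass the test, and under median-of-ratios scaling it was 0.06 (adjusted p = 0.463, the highest of the alternatives). Fundc1 (NCBI gene 363442), a receptor regulated by phosphorylation under hypoxia, was the least abundant of the 9, at 9.59, 10.1, 8.78, 10.4 and 8.81 FPKM in CON and 9.62, 8.90, 9.46, 8.54 and 10.5 FPKM in HG. The groups covered the same range, and its log2 fold change of -0.02 had a 95% interval from -0.17 to 0.13 (adjusted p = 0.828). It was covered by at least 296 to 373 reads per library.

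The 3 fusion genes fell together, the outer membrane pair more than the inner membrane gene. Mfn1 (NCBI gene 192647) was at 75.8, 72.0, 70.6, 71.5 and 78.2 FPKM in CON and 60.7, 55.8, 60.6, 60.9 and 61.6 FPKM in HG. Every HG library was lower, and HG replicate 2 lay below the other 4. The mean fell from 73.6 ± 3.28 to 59.9 ± 2.34 FPKM (log2 fold change -0.30, SE 0.0404, adjusted p = 0.000152).

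Mfn2 (NCBI gene 64476), which also tethers mitochondria to the endoplasmic reticulum, was at 53.9, 53.0, 53.2, 52.5 and 53.1 FPKM in CON and 46.0, 44.6, 42.2, 44.4 and 42.3 FPKM in HG. The CON libraries were almost identical and every HG library was lower. The mean fell from 53.1 ± 0.476 to 43.9 ± 1.61 FPKM (log2 fold change -0.28, SE 0.0331, adjusted p = 6.31e-05). The ratio of Mfn2 to Mfn1 within a library, which does not depend on library scaling, was 0.723 ± 0.0291 in CON and 0.733 ± 0.0458 in HG, a log2 difference of 0.02 (p = 0.690, adjusted p = 0.863 over 5 ratios, two-sided exact permutation test). No difference between the decreases of both mitofusins was therefore detectable with 5 libraries each.

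Opa1 (NCBI gene 171116) was at 35.1, 35.6, 33.6, 35.6 and 36.0 FPKM in CON and 33.5, 31.0, 31.3, 33.8 and 31.8 FPKM in HG. The groups overlapped through CON replicate 3 and HG replicate 4. The mean fell from 35.2 ± 0.944 to 32.3 ± 1.27 FPKM, a log2 fold change of -0.12 (SE 0.0374, 95% interval -0.21 to -0.04, adjusted p = 0.0194). Without HG replicate 3 the adjusted p was 0.0504, within a range of 0.00183 to 0.0504 over the alternatives, and under median-of-ratios scaling the log2 fold change was -0.21.

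The 2 fission genes did not pass the test. Dnm1l (NCBI gene 114114) was at 38.5, 40.9, 36.7, 38.0 and 38.8 FPKM in CON and 37.1, 35.8, 36.0, 37.3 and 39.1 FPKM in HG. The groups overlapped widely, and the log2 fold change was -0.06 (95% interval -0.14 to 0.03, adjusted p = 0.268). Fis1 (NCBI gene 288584) was at 41.6, 40.2, 44.0, 43.0 and 40.7 FPKM in CON and 39.7, 40.8, 39.3, 38.8 and 37.4 FPKM in HG. Only HG replicate 2 reached into the CON range, and the log2 fold change was -0.10 (95% interval -0.18 to -0.02, adjusted p = 0.0560). Both genes passed as lower under median-of-ratios scaling (Dnm1l -0.15, adjusted p = 0.0104; Fis1 -0.19, adjusted p = 0.00434) and under quantile normalization, and the adjusted p over all alternatives ran from 0.0104 to 0.501 for Dnm1l and from 0.00434 to 0.136 for Fis1. The ratio of Dnm1l to Fis1 was 0.922 ± 0.0691 in CON and 0.948 ± 0.0624 in HG (p = 0.532, adjusted p = 0.863, two-sided exact permutation test).

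**Figure D2:**
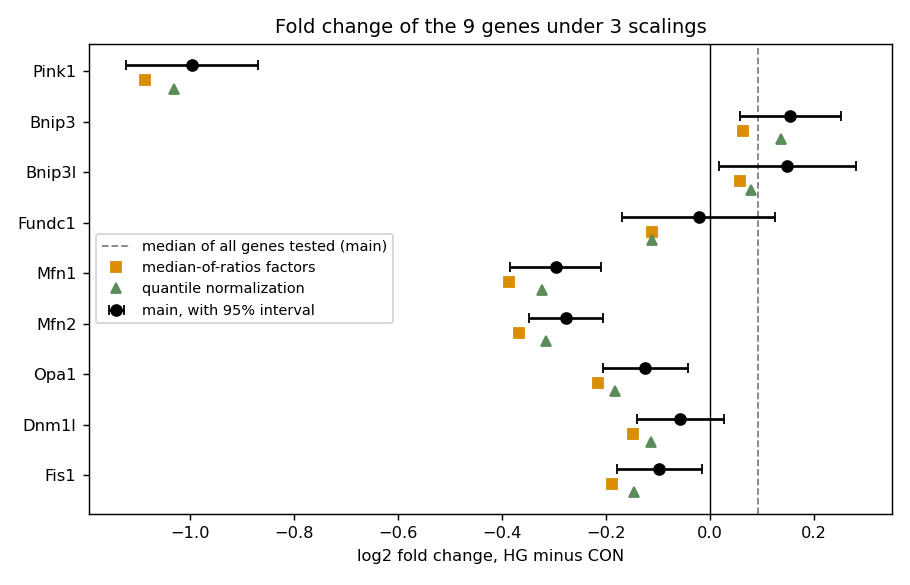
Log2 fold change (horizontal axis, HG minus CON) of the 9 genes with FPKM as deposited (black, with 95% interval), with median-of-ratios factors (squares) and after quantile normalization (triangles). The dashed line is the median of all genes tested, 0.09, and Pink1 stood at -0.996 to -1.09 under the 3 scalings while the other 8 genes lay between -0.39 and 0.16.

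The order of levels changed between groups because of Pink1. In CON hearts Pink1 (77.3 FPKM), Bnip3 (75.4 FPKM) and Mfn1 (73.6 FPKM) led, with overlapping ranges between neighbours, followed by Mfn2, then Fis1 and Dnm1l, which overlapped, then Opa1, Bnip3l and Fundc1, each separated from the next. In HG hearts Bnip3 led alone with 83.9 FPKM, above Mfn1 (59.9 FPKM) and Mfn2 (43.9 FPKM) in all 5 libraries. Pink1, at 38.6 FPKM, came after Fis1, with a range that overlapped those of Fis1 and Dnm1l. The order of Opa1, Bnip3l and Fundc1 at the lower end was the same in both groups.

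Expressed as shares of the summed FPKM of the 9 genes, which was 424.9 ± 5.18 in CON and 366.8 ± 4.42 in HG, Pink1 went from 18.2 ± 1.41% to 10.5 ± 0.751%. The receptor share went from 24.8 ± 1.17% to 31.6 ± 1.23% and the fission share from 18.9 ± 0.369% to 20.8 ± 0.320%, and for these 3 roles the groups did not overlap. The fusion share was 38.1 ± 0.728% in CON and 37.1 ± 0.976% in HG, with overlap. Shares add up to the whole, so a smaller Pink1 share raises the others.

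**Figure D3:**
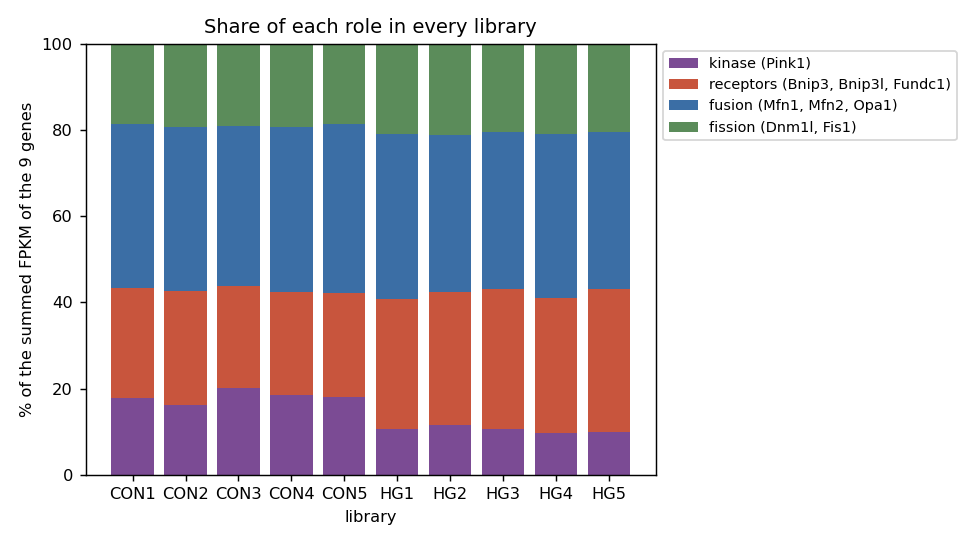
Share (vertical axis, percent of the summed FPKM of the 9 genes) of each role in each of the 10 libraries, stacked from Pink1 at the bottom through receptors and fusion to fission at the top. The Pink1 segment was 16.3 to 20.2% in CON libraries and 9.75 to 11.6% in HG libraries.

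Because cardiomyocyte and mitochondrial transcripts were lower in HG, the 9 genes were also set against Cs, which encodes the matrix enzyme citrate synthase, and Tnnt2, which encodes cardiac troponin T. Both references fell. The mean of Cs was 316.6 ± 7.35 FPKM in CON and 259.9 ± 17.2 in HG, which is -0.29 on the log2 scale (adjusted p = 0.000377). The mean of Tnnt2 was 3953 ± 93.5 and 3246 ± 174.8 FPKM, also -0.29 (adjusted p = 0.000560). Pink1 remained lower relative to both. Its ratio to Cs went from 0.244 ± 0.0181 to 0.149 ± 0.0142 and its ratio to Tnnt2 from 0.0196 ± 0.00165 to 0.0120 ± 0.00133, a log2 difference of -0.71 in each case, with no overlap (two-sided exact permutation test, p = 0.00794 each, the smallest that 5 libraries against 5 allow, adjusted p = 0.0198 over 5 ratios). A further cardiomyocyte gene, Myh6, fell by as much as Pink1 itself, with a log2 fold change of -1.03. It had the largest fall of the 9 cardiomyocyte markers. Their median was -0.45, and Nkx2-5, at -0.12, moved least and did not pass the test.

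The mitofusins showed no such decrease relative to Cs or Tnnt2. This comparison of the other members was added after the values had been seen and is given without a test. Relative to Cs, Mfn1 differed by -0.01 and Mfn2 by 0.01 on the log2 scale, and the groups overlapped for both genes. Relative to Tnnt2 the differences were -0.01 and 0.01, again with overlap. Bnip3 was higher by 0.44 and Bnip3l by 0.44 relative to each reference, with no overlap between groups. The differences relative to Cs were 0.16 for Opa1, 0.19 for Fis1, 0.23 for Dnm1l and 0.27 for Fundc1, and of these Opa1 alone did not overlap. Relative to Tnnt2 Opa1 overlapped and Dnm1l did not. The result depends on the reference. Log2 fold changes ran from -0.36 to 0.15 over the 12 mitochondrial content genes described below. They ran from -1.03 to -0.12 over the 9 cardiomyocyte markers, and ratios to these other genes were not computed. Cs and Tnnt2 themselves each moved by -0.29, while the median of all genes tested was 0.09. A gene at that median would therefore also stand higher relative to either reference. How many of all genes did not overlap on this scale was not computed.

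**Figure D4:**
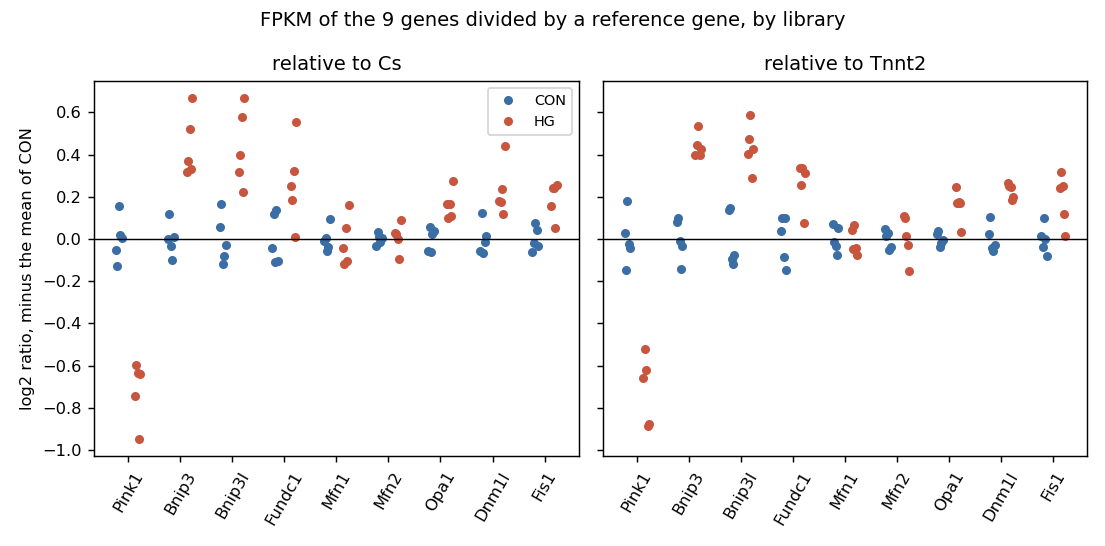
Log2 ratio of each of the 9 genes to Cs (left) and to Tnnt2 (right) in every library, after subtraction of the CON mean (vertical axis). Pink1 lay lower in all HG libraries, the mitofusins lay around 0, and Bnip3 and Bnip3l lay higher in all HG libraries. Both reference genes were themselves lower in HG.

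Within the receptors, Bnip3l followed Bnip3 closely. The ratio of Bnip3l to Bnip3 was 0.269 ± 0.0115 in CON and 0.268 ± 0.0112 in HG, a log2 difference of -0.01 (p = 0.905, adjusted p = 0.905, two-sided exact permutation test). The p-value of Bnip3l missed the threshold while that of Bnip3 passed, but no difference between them was detectable.

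The genes whose pattern over the 10 libraries was nearest to that of Pink1, by root mean square distance of centred log2 levels among 11708 genes, were Ckm (distance 0.0831), the muscle creatine kinase, Fbxo40 (0.0926), a muscle F-box protein, Polr3k (0.0951), an RNA polymerase III subunit, Eef1a2 (0.102), the muscle and neuronal elongation factor, and Ank1 (0.102), an ankyrin. Ckm fell from 1013 ± 65.6 to 518.1 ± 39.97 FPKM and Fbxo40 from 18.2 ± 0.601 to 9.08 ± 0.421 FPKM, with log2 fold changes of -0.97 and -0.997. The nearest gene to Mfn1 was Dcaf11 (0.0335), to Mfn2 Dlat (0.0312), a subunit of pyruvate dehydrogenase, to Opa1 Nap1l4 (0.0258), to Dnm1l Rwdd4 (0.0246), to Fis1 Calm3 (0.0271), to Bnip3 Ugcg (0.0288), to Bnip3l Cfap36 (0.0410) and to Fundc1 Pogk (0.0440). The distances are descriptions and carry no test.

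In the deposited annotation, the term mitochondrial outer membrane was held by 8 of the 9 genes and by 134 genes, or 0.743%, of the table, and Fis1 held the narrower term for integral components of that membrane. Cellular response to hypoxia was annotated to 6 of them (Pink1, Bnip3, Bnip3l, Mfn1, Mfn2, Opa1) and to 0.832% of the table. Of these 6 genes, 4 were lower and Bnip3 was higher. Cellular response to glucose stimulus was annotated to Mfn1, Mfn2, Opa1 and Fis1, and to 0.555% of the table. Of these genes, Mfn1, Mfn2 and Opa1 were lower, which are the fusion genes described above. Over all genes tested, 11.8% were lower and 28.4% higher.

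A wider list of 54 genes of the same processes, of which 52 were tested, moved in both directions. It held 7 genes that rose, 19 that fell and 26 that did not pass. Over all genes tested, 28.4% rose and 11.8% fell. The median log2 fold change of the list was -0.05 against 0.09 over all genes. Under median-of-ratios scaling, 5 genes of the list rose and 25 fell, while 2271 of the 14533 genes tested there rose and 2551 fell.

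Among genes that act with PINK1, 1 of 11 rose and 2 fell. Pgam5, a phosphatase that holds PINK1 stable, went from 24.1 FPKM in CON to 28.2 in HG (log2 fold change 0.23, adjusted p = 0.000403). Rhot1 and Rhot2, the MIRO GTPases that anchor mitochondria to motor proteins, fell by 0.25 and 0.15 on the log2 scale (adjusted p = 0.00227 and 0.00603). Under median-of-ratios scaling the log2 fold change was 0.14 for Pgam5 (adjusted p = 0.0142, the highest of the alternatives) and -0.24 for Rhot2.

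Among receptors and adaptors, 1 of 10 rose and 2 fell. The log2 fold change of the autophagy receptor gene Sqstm1 was 0.15 (adjusted p = 0.0273), which under median-of-ratios scaling was 0.06 with an adjusted p of 0.391, the highest of the alternatives. Optn, which links ubiquitin on mitochondria to LC3, fell from 8.37 FPKM in CON to 6.63 in HG (log2 fold change -0.33, adjusted p = 0.00201). The inner membrane receptor gene Phb2 fell by 0.09 on the log2 scale (adjusted p = 0.0229), but did not pass after quantile normalization (-0.07, adjusted p = 0.0751) or with the replicate block (adjusted p = 0.0762, the highest of the alternatives), and was at -0.18 under median-of-ratios scaling.

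Among 9 tested fission genes, 1 rose and 3 fell, and they included the strongest rise of the list. Mtfr2, a regulator of fission, went from 6.41 to 11.97 FPKM, a rise of 0.88 on the log2 scale (adjusted p = 2.66e-05), while Mtfp1, an inner membrane fission protein, fell by 0.48 on the same scale, from 22.4 to 16.1 FPKM (adjusted p = 2.61e-05). Mief2, an adaptor for DRP1, fell by 0.23 on the log2 scale (adjusted p = 0.0177).

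The fusion and cristae genes had the most calls, with 8 of 14 lower, 3 higher and a median log2 fold change of -0.19. Spg7, a subunit of an inner membrane protease, fell by 0.34 and Miga2, a mitofusin partner, by 0.30 on the log2 scale (adjusted p = 0.000657 and 0.00375). Chchd6, a cristae organizing protein, rose from 8.69 FPKM in CON to 11.8 in HG (log2 fold change 0.44, adjusted p = 0.000374), and Stoml2, a stabiliser of OPA1, rose by 0.20 on the log2 scale (adjusted p = 0.000547), or by 0.11 under median-of-ratios scaling (adjusted p = 0.0319, the highest of the alternatives).

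In the LC3 family and its initiation complex, 1 of 8 rose and 4 fell. Map1lc3a, an LC3 gene, fell from 131.1 FPKM in CON to 87.2 in HG (log2 fold change -0.58, adjusted p = 1.79e-05) and Gabarap by 0.16 on the log2 scale (adjusted p = 0.0147), while Gabarapl1 rose from 18.9 FPKM in CON to 22.5 in HG (log2 fold change 0.26, adjusted p = 0.00186). The groups of Gabarap overlapped, and it did not pass after quantile normalization (-0.10, adjusted p = 0.0694, the highest of the alternatives). Under median-of-ratios scaling Gabarap was at -0.25 and Gabarapl1 at 0.17.

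**Figure D5:**
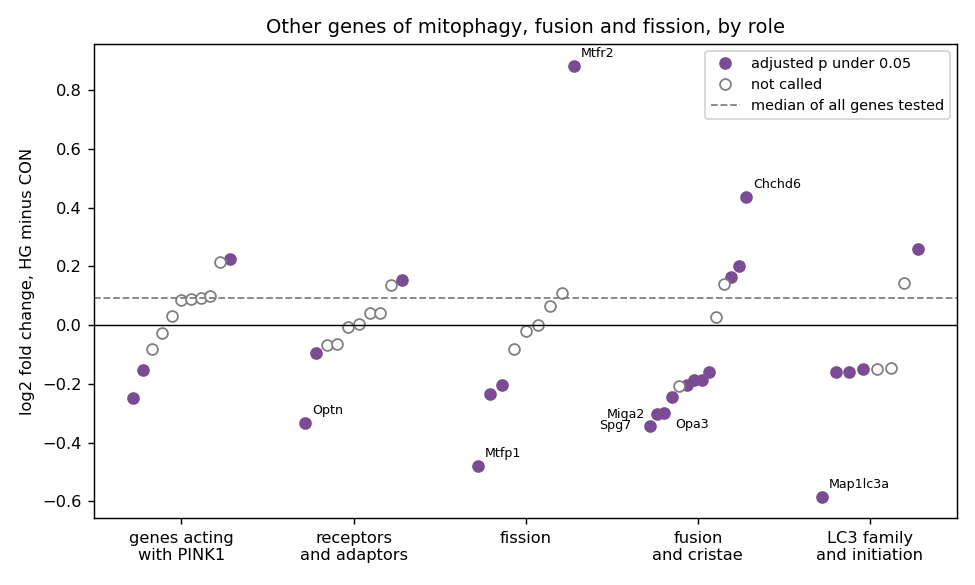
Log2 fold change (vertical axis, HG minus CON) of the 52 tested genes of the wider list, grouped by role (horizontal axis) and sorted within each. Filled points passed the test, and the dashed line is the median of all genes tested, 0.09. Mtfr2 at 0.88 and Map1lc3a at -0.58 marked the extremes, and most filled points of fusion and cristae lay under 0.

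The animal mitophagy pathway in the deposited KEGG annotation held 67 genes, 7 of them among the 9 described here. Of the 59 other genes tested, 15 rose and 10 fell, with a median log2 fold change of 0.03. Over all genes tested, 28.4% rose and 11.8% fell, with a median of 0.09. The split of the 59 genes turned with the scaling, to 8 and 15 under median-of-ratios factors and to 9 and 12 after quantile normalization. The split of all genes tested also shifted, from 4127 and 1709 to 2271 and 2551 under median-of-ratios factors. After quantile normalization it was 2615 and 2317. Among the strongest rises were those of Src (log2 fold change 0.48, adjusted p = 0.00178), a tyrosine kinase, and of Atf4 (0.30, adjusted p = 2.33e-05), a factor of the integrated stress response. The strongest falls were those of Optn, of Foxo3 (-0.30, adjusted p = 0.00156), a forkhead factor that drives autophagy genes in muscle, and of Hras (-0.28, adjusted p = 0.000141).

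Most general mitochondrial genes examined moved in the direction of the mitofusins. Of 12 genes used as a guide to mitochondrial content, 8 fell (among them Cs, Tomm40, Timm23, Vdac1, Vdac2, Vdac3 and Cycs), Tomm20 rose, and the median log2 fold change was -0.18. All genes tested had a median of 0.09, and 11.8% of them fell and 28.4% rose. The falls ran from -0.17 for Vdac2 to -0.36 for Cycs, the gene of cytochrome c, on the log2 scale. After quantile normalization 6 of the 12 fell: Vdac2 (-0.10, adjusted p = 0.0543) and Vdac3 (-0.09, adjusted p = 0.237), each at the highest adjusted p of its alternatives, did not pass, and Vdac1 was at -0.14. Of all 14542 genes tested, 2317 fell after quantile normalization. Tomm40 did not pass without HG replicate 3 (adjusted p = 0.0638, the highest of its alternatives). The log2 fold change of Tomm20, an import receptor, was 0.15 (adjusted p = 0.00206), which under median-of-ratios scaling was 0.06 with an adjusted p of 0.230, the highest of the alternatives. RNA levels of such genes do not measure mitochondrial mass or mitophagy itself.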

How the data were processed

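Total RNA of 10 fetal hearts at E19.5 (5 CON, 5 HG) was extracted with TRIzol and sequenced by the study from TruSeq Stranded mRNA libraries. Its methods also mention a cDNA library from RNA pooled over the samples, while the deposited values differ between libraries. Per the submitters' processing notes, fastp, HISAT2, HTSeq and R 3.2.0 were used on the mRatBN7.2 genome; the strand setting of counting is not given in the sources used here. The authors deposited FPKM per gene and library, which were the values analysed. Groups followed the labels.

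The steps of low FPKM values were read as whole reads (100% of genes, within 0.05 reads), giving a depth of 17644066 to 18243986 reads in CON and 16676643 to 19114357 in HG. These are the smallest whole numbers that fit, so a gene's reads are at least those given. The step was checked on redrawn reads, of which 97.84% of 17712 genes came back exactly.

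log2(FPKM + 0.1) was fitted by limma 3.58.1 (R 4.3.3), empirical Bayes with a trend, over the 14542 genes whose mean reached 0.1 FPKM, with Benjamini-Hochberg adjustment. Fold changes are on that log2 scale. Ratios within libraries were tested by two-sided exact permutation. For this comparison, values of 14542 genes were simulated. Of these, 85 of 92 genes changed by a log2 value of 1 and 72 of 108 changed by 0.5 were recovered. Among the genes left unchanged, 6 were called. Alternatives were other pseudocounts, filters and scalings, hemoglobin genes left out, no trend, voom on the recovered reads, Y-linked genes as a covariate (2 of 5 libraries per group expressed them), the replicate block, the ratio of mean FPKM, and each library left out.

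The 9 genes and all lists were chosen with earlier results of these data known. Named besides them were, in each role of the wider list, up to 2 passing genes with the largest rise and 2 with the largest fall, 3 of each in the KEGG pathway, the 5 nearest genes to Pink1 and the nearest to each other member, passing genes of the regulator and mitochondrial content lists, and the markers. A few genes that this rule or these lists hold are not reported here. Genes outside that rule, chosen after their values were seen, were Ppargc1a, Hif1a and the hypoxia targets named. Promoter windows came from RefSeq on GRCr8, a different build from that of the files, and no coordinates were combined. Calls of a gene with an overlapping or near-identical neighbour, such as the hemoglobin genes, are uncertain.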

Additional observations from a re-analysis of the deposited data

Results flagged for a closer look

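The Mfn1 level of HG replicate 2, 55.8 FPKM, stood apart from the other 4 HG libraries. The nearest of them was at 60.6 FPKM, and the gap took 0.830 of the range of the group, above Dixon's 95% critical value for 5 values. It was the 1 such value among 28 groups of 5 tested, and chance gives one in about 1 group of 20. Without HG replicate 2 the log2 fold change of Mfn1 was -0.27 (adjusted p = 0.000325, limma), and the log2 difference of the ratio of Mfn2 to Mfn1 was -0.01.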

How the results depend on the processing

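The decreases of Pink1, Mfn1 and Mfn2 passed under all 21 alternatives run for them, with log2 fold changes of -1.09 to -0.96 for Pink1. Under median-of-ratios factors 0 of the 9 genes were higher by limma, since Bnip3 was at 0.06 (adjusted p = 0.270), and 0 also at an unadjusted p under 0.05. Leaving out each library in turn gave 1 to 2 higher genes, the second being Bnip3l without CON replicate 1 or CON replicate 2 (adjusted p = 0.0455 and 0.0351). The number past the fold requirement was 1, Pink1, under median-of-ratios factors, quantile normalization and with hemoglobin genes left out, and 0 to 1 with each library left out (1 without CON replicate 2 or HG replicates 1, 2 or 3). Opa1 missed the threshold without HG replicate 3 (adjusted p = 0.0504). Fundc1 ranged from -0.0603 to 0.0118 with each library left out, above 0 without CON replicate 4 or HG replicate 4. With each library left out, the ratio of Mfn2 to Mfn1 differed by -0.0117 to 0.0430 and that of Bnip3l to Bnip3 by -0.0269 to 0.0203 on the log2 scale. Of the other results, 176 fold changes and 48 ratios kept direction and side, and 9 fold changes newly passed. Another 96 counts were classed as not moved, though some of these differed. Members lower in HG numbered 4 with FPKM as deposited and 6 under median-of-ratios factors or quantile normalization. Without HG replicate 3 they numbered 3. Over all genes, 1709 of 14542 were lower with FPKM as deposited, 2551 of 14533 under median-of-ratios factors and 2317 of 14542 after quantile normalization. Without HG replicate 3, 1520 of 14518 genes were lower. The cause of these changes was not tested. Scaling set the overall balance: 70.7% of passing genes were higher with FPKM as deposited, 47.1% with median-of-ratios factors and 53.0% with quantile normalization.

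Same-numbered libraries of the groups correlated at -0.13 to 0.11, so no pairing by number was visible in the values. The labels do not say whether same-numbered libraries shared a batch. With the replicate block, 3566 genes rose and 1530 fell, against 4127 and 1709, no call among the 9 genes changed, and both Pink1 ratios stayed at -0.71 with p = 0.0625, the smallest that an exact sign-flip test of 5 pairs can give. Recovered reads are lower bounds, so how far depth limits each gene was not compared.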

Other observations

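Among 10 regulators of mitochondrial genes and autophagy, 4 fell and 1 rose, against 11.8% and 28.4% of all genes tested. Ppara, a nuclear receptor for fatty acid oxidation, fell from 9.37 FPKM in CON to 4.96 in HG (log2 fold change -0.90, adjusted p = 2.50e-05, limma). Esrra, an orphan nuclear receptor of mitochondrial genes, went from 39.2 to 31.8 FPKM, Foxo3 from 10.5 to 8.56 FPKM and Tfeb, a factor of lysosome genes, from 8.22 to 7.06 FPKM. Their log2 fold changes were -0.30, -0.30 and -0.22 (adjusted p = 0.000269, 0.00156 and 0.0207), and without CON replicate 3 that of Tfeb no longer passed (adjusted p = 0.0545, the highest of its alternatives). Nrf1, encoding nuclear respiratory factor 1, rose by 0.19 on the log2 scale (adjusted p = 0.0326) but not after quantile normalization (0.08, adjusted p = 0.334, the highest of its alternatives). Ppargc1a, the coactivator of mitochondrial biogenesis, and Hif1a did not pass (-0.10 and -0.05, adjusted p = 0.272 and 0.599).

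Bnip3 is itself a target of hypoxia-inducible factors. Of 10 other such targets, 3 rose, 1 fell and 6 did not pass, with a median log2 fold change of 0.04. Among all genes tested, 28.4% rose and 11.8% fell, with a median of 0.09, so these counts lay near the overall rate. Adm, the gene of adrenomedullin, went from 2.35 to 3.28 FPKM (0.46, adjusted p = 0.0142), Slc2a1, a glucose transporter, from 131.1 to 161.3 FPKM (0.28, adjusted p = 0.0451) and Pdk1, a kinase of pyruvate dehydrogenase, from 31.3 to 35.1 FPKM (0.16, adjusted p = 0.00171). Under median-of-ratios scaling neither Slc2a1 (0.19, adjusted p = 0.213) nor Pdk1 (0.07, adjusted p = 0.110) passed, each at its highest adjusted p, and Slc2a1 also failed without CON replicates 1 to 5 and HG replicates 1, 2 or 4, each left out in turn, and with no trend, no filter, hemoglobin genes left out or the Y-linked covariate. Adm did not pass after quantile normalization (0.36, adjusted p = 0.0577, its highest). Egln3, an oxygen-sensing hydroxylase, went the other way, from 65.8 to 43.2 FPKM (-0.61, adjusted p = 2.17e-05).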
